A study of Mus musculus with 4 samples.

Results

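Large parts of the mouse genome outside protein-coding genes are transcribed into long noncoding RNAs, many of which have no gene name and are known only by the interval in which they were mapped. Some act in the nucleus on nearby or distant genes, some are precursors of small RNAs, and for most no function is known. In embryos such RNAs are often made in few tissues and at low abundance, and many lie close to genes for developmental transcription factors. The array used here carries probes for intergenic RNAs that are named by chromosome, first and last base (build mm9) and strand. Of 56604 probes that are not controls, 4450 have such a name, and the 4276 on autosomes are described here. They were chosen by name alone, though earlier results of these data were known. The 174 on the X chromosome were left out.

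RNA of whole C57BL/6 embryos was measured at embryonic day (E) 8.5 and E10.5 in wild type (WT) and *Dyrk2*-/- embryos on 4 one-colour Agilent arrays of 1 slide, with 1 array for each genotype and stage. *Dyrk2*, which encodes a protein kinase, had been disrupted by small deletions made with the CRISPR/Cas9 nickase system in 3 deletion lines, and which line or how many embryos gave each RNA is not given in the sources used here. The comparisons ask how expression differs between genotypes and between the stages. With 1 array per group there is no replicate of any group, so genotypes at a stage were compared without a test, and precision is limited by how few arrays there are.

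Expression values below are log2 intensities after subtraction of the array's 75th percentile, and they are listed in the order WT E8.5, *Dyrk2*-/- E8.5, WT E10.5, *Dyrk2*-/- E10.5. *Dyrk2* itself had values of 0.06, 0.76, −0.31 and 0.34 with 1 probe and −0.23, −0.20, −0.28 and 0.00 with the other. Neither probe was lower on an array labelled *Dyrk2*-/- than on the WT array of its stage. A small deletion need not remove the transcript, and whether either probe covers the deleted bases was not determined, so every genotype direction below rests on the labels alone, and the arrays are called knockout-labelled. *Xist*, the noncoding RNA of the inactive X chromosome, was well above background only on the knockout-labelled array at E10.5. Signals of 4 Y-linked genes (*Uty*, *Kdm5d*, *Ddx3y* and *Eif2s3y*) showed the reverse, being at background there and detected elsewhere. *Xist* had −6.80, −6.45, −6.77 and 4.23, and *Ddx3y* had −1.56, −1.56, −2.02 and −6.99, so that the E10.5 arrays differed in the markers of sex.

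Markers of the main embryonic tissues were present. The neural genes *Sox2*, *Pax6* and *Tubb3*, the endoderm genes *Sox17* and *Foxa2* and the heart genes *Myl7* and *Tnnt2* were well above background on all 4 arrays. Of the mesoderm genes, *T* and *Meox1* were too, and the muscle factor *Myog* was only at E10.5. Among tissues that a dissection could hold, the yolk sac endoderm genes *Ttr* and *Afp* were detected on all 4 arrays and *Apoa4* on the E8.5 arrays. The arrays do not show which tissue made these RNAs. The decidual gene *Prl8a2* was detected on both E8.5 arrays and *Prl3c1* on none. Of the trophoblast genes, *Prl3d1* was detected on the knockout-labelled E8.5 array alone and *Tpbpa* on none, and *Prl2c2* had no probe. Intensities summed over each list, in multiples of the 75th percentile, were 13.2, 12.1, 28.3 and 22.1 for the neural genes (*Sox2* brightest at E8.5 and *Tubb3* at E10.5) and 11.4, 12.7, 7.89 and 7.59 for the mesoderm genes (*Meox1* brightest). They were 6.17, 3.43, 2.52 and 2.13 for the endoderm genes (*Foxa2* brightest) and 80.4, 78.5, 32.0 and 34.3 for the heart genes (*Myl7* brightest).

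The 4276 probes carry 3906 names, each a region and a strand, in 3094 regions. Regions were between 62 and 538251 bases long, with a median of 10701. The strands were about equally covered, with 2144 forward and 2132 reverse probes, and all 19 autosomes had members, from 95 to 343 each. For 299 names there was more than 1 probe. A mapped position was given for 4185 probes and was missing for 91.

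A probe was counted as detected where the scanner software marked it well above background. In all, 1888 of the 4276 probes (44.2%) were detected on 1 array or more, against 60.7% of all probes, 74.6% of RefSeq messenger RNA probes (NM_ accessions) and 39.0% of RefSeq noncoding RNA probes (NR_ accessions). By array, 1627 were detected in WT E8.5, 1506 in *Dyrk2*-/- E8.5, 1638 in WT E10.5 and 1676 in *Dyrk2*-/- E10.5. Of the members, 1371 were detected on all 4 arrays and 2388 on none. Forward probes were detected in 42.8% and reverse probes in 45.5% of cases. The detected members were dim: over those on all 4 arrays the median of the mean log2 intensity was −2.09, against −0.07 over all 28622 probes detected on all 4.

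Detection was highest for probes rich in G and C. Members with 60% or more G and C in the probe were detected in 72.3% of cases, those with 50% to under 60% in 51.2%, those with 40% to under 50% in 39.4% and those under 40% in 42.4%. Over all probes of the array the same classes gave 73.5%, 66.3%, 59.4% and 59.4%. The hexamer AATAAA, the usual signal for cleavage and polyadenylation of a transcript, was searched on the strand of the probe. It stood in 4.05% of member probes and in 10.6% of RefSeq messenger RNA probes. Among members it was in 5.76% of those detected on all 4 arrays and in 3.18% of those detected on none.

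Some of the intergenic RNAs were among the bright signals of the array. The reverse transcript of chr17:17481706-17482457, 37.9 kb from the probe of the kinase gene *Riok2*, had values of 7.74, 7.90, 7.69 and 7.68. For the forward transcript of chr17:48068261-48087905, 68.7 kb from *Foxp4*, they were 7.85, 7.80, 7.45 and 7.46. Both were high on every array. The forward transcript of chr6:116123643-116124550, near *Washc2*, had 7.67, 7.72, 7.45 and 7.51, and the reverse transcript of chr11:22681800-22707775, near *B3gnt2*, whose probe shares a run of 20 or more bases with a member on chromosome 2, had 7.50, 7.51, 7.29 and 7.55. The reverse transcript of chr7:108209996-108216032 had 7.48, 7.42, 7.45 and 7.46. Its probe has no mapped position and shares a run of 28 bases with a probe of the ribosomal protein gene *Rps29*, so its signal may not belong to the region in its name. In all, 133 members share a run of 20 or more bases with another probe, 38 of them with a probe that is not named by coordinates. The probes of the chr17 transcripts, shown because AATAAA (capitals) stands within both, read 5′ to 3′:
chr17:17482318-17482377, reverse strand: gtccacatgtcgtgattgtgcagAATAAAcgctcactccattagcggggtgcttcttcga
chr17:48073450-48073509, forward strand: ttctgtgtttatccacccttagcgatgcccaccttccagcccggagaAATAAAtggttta

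Between E8.5 and E10.5, intergenic transcripts changed in both directions. Of the 1371 members detected on all 4 arrays, 142 (10.4%) were higher at E10.5 in the limma fit with genotype as a block, called at a Benjamini-Hochberg adjusted p under 0.05 over all probes in the fit, against 14.0% of all probes in the fit. Lower at E10.5 were 134 (9.77%), against 20.7% of all probes. In either direction the share was 20.1% for members and 34.7% for all probes. By signal, 11.9% of members against 17.9% of all probes were called at mean log2 intensities up to −3. The next classes, bounded at −1.5, 0 and 1.5, gave 19.7% against 32.6%, 22.3% against 38.2% and 25.2% against 41.1%, and the class above 1.5 gave 33.5% against 37.5%. The median difference between stages was −0.02 for members and −0.09 for all probes. In whole embryos, fewer cells of a type and less RNA per cell cannot be told apart. Of the called members, 80 differed by at least 2-fold, 52 of them higher and 28 lower at E10.5.

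The split of the calls depended on scaling. The share of higher among called probes was 51.4% for members and 40.3% for all probes. With scaling on spike-in probes 27 were higher and 3 lower (90.0% higher, all probes 81.0%), with no scaling 331 and 62 (84.2%, all probes 74.2%), and with normexp background correction 110 and 169 (39.4%, all probes 36.6%). The median over all probes moved from −0.09 to 0.19 with spike-in scaling and to 0.15 with none, and the stage differences below are relative to the 75th percentile. Each stage rests on 2 arrays of different genotype and the fit has 1 residual degree of freedom, so its errors borrow from all probes. Of 34 named members called for stage and followed over the alternatives, 0 changed sign, 19 lost the call with spike-in scaling, and 18 moved by over 1.5 times with normexp, which adds an offset to the intensities.

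Among members in the fit, the largest rise was on chromosome 1, between *Nr5a2* and *Ptprc*. The forward transcript of chr1:139822286-139822985 had values of −3.45, −3.81, 0.29 and 0.19. Both E10.5 arrays were far above both E8.5 arrays, by 3.87 on the log2 scale (SE 0.18, adjusted p = 7.34e-07), which is 14.7-fold. In the same interval the forward transcript of chr1:139795171-139796306 had −4.83, −5.21, −1.04 and −1.07. It was not well above background at E8.5 and was at least 12.3-fold higher at E10.5. Such a bound sets the mean of the bright arrays against, on each dim array, the higher of the probe's own value and the lowest value of a probe well above background there. RefSeq (GRCm38.p6, used for gene order only) places the microRNA genes *Mir181a-1* and *Mir181b-1* between these coding genes.

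Other rises also came from intervals that hold microRNA genes, among them *Mir9* and *Mir124* genes, which are known for expression in the nervous system. The forward transcript of chr3:88009045-88036270, between *Mef2d* and *Rhbg* with *Mir9-1* in the interval, had −3.31, −2.99, 0.36 and −0.49. It rose by 3.09 (SE 0.25, adjusted p = 2.3e-05). For the forward transcript of chr8:86705694-86711244, between *Nanos3* and *Zswim4* with *Mir181c*, *Mir181d* and *Mir23a*, the values were −3.51, −3.33, −1.04 and −1.06, a rise of 2.37 (SE 0.19, adjusted p = 2e-05). Its nearest coding gene *Nanos3*, a germ cell gene 5.82 kb away on the other strand, rose by 1.72 (SE 0.15). The reverse transcript of chr14:65205076-65219432 had −5.06, −4.95, −0.53 and −0.69, not well above background at E8.5 and at least 16.7-fold higher at E10.5. A probe of *Mir124a-1hg*, the host transcript of a neuronal microRNA, lies in its region on the opposite strand. At chr13:83867711-83878140, the reverse transcript, in an interval with *Mir9-2* and 65.9 kb from *Mef2c*, had −0.83, −0.86, 0.41 and 0.11 and rose by 1.11 (SE 0.15, adjusted p = 0.000496), whereas *Mef2c* fell by 0.67 (SE 0.13). In these 4 regions both E10.5 arrays were above both E8.5 arrays. The call at chr13:83867711-83878140 was lost with spike-in scaling, where the difference was 1.39. With normexp the differences at chr3:88009045-88036270 and chr8:86705694-86711244 were 1.91 and 1.23.

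The grouping by microRNA genes was made after these values had been seen. Large falls came from such intervals too, among them chr11:119254413-119296960 with *Mir1932* and the reverse strand of chr8:91471819-91551119 with *Mir8110*, given below. Over all members, 287 lay in an interval with at least 1 RefSeq microRNA gene between the flanking coding genes. Of the 88 of them in the fit, 16 rose and 12 fell (31.8% called), against 21.1% of the 683 members in intervals with other noncoding genes only and 17.4% of the 579 in intervals with none found. The share is near the 34.7% of all probes in the fit, and the difference between intervals was not tested. The arrays measured no mature microRNA. The probes of the transcripts named above on chromosomes 1, 3, 8 and 14 follow, 5′ to 3′, since the RNAs have no other name than their place. None holds AATAAA or ATTAAA, so they have no capitals:
chr1:139822804-139822863, forward strand: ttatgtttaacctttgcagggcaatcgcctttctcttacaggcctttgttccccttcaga
chr1:139796208-139796267, forward strand: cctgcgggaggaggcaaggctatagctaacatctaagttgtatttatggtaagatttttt
chr3:88033785-88033844, forward strand: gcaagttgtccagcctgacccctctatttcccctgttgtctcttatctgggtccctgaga
chr8:86705876-86705935, forward strand: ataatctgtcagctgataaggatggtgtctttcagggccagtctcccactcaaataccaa
chr14:65208642-65208701, reverse strand: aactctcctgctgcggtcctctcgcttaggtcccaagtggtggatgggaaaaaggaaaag

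Further members with large rises had other neighbours. At chr3:30099759-30133959, the reverse transcript, flanked on both sides by probes of *Mecom*, a transcription factor gene of blood stem cells, and so perhaps within that gene, had −4.03, −4.49, −1.69 and −1.47. It rose by 2.68 (SE 0.24, adjusted p = 3.76e-05). At chr6:134879009-134880130, the forward transcript, 3.67 kb from the cell cycle inhibitor gene *Cdkn1b* with *Lockd* in the interval, had −2.17, −2.26, −0.10 and −0.25, a rise of 2.04 (SE 0.16), and *Cdkn1b* rose by 0.78 (SE 0.12). For this pair, both E10.5 arrays were above both E8.5 arrays. Of the transcripts with no such neighbour, that of chr10:69679644-69682458 (forward, 27.1 kb from *Ccdc6*) had −4.58, −4.37, −1.28 and −1.85 and rose by 2.92 (SE 0.25), while *Ccdc6* fell by 0.39 (SE 0.13). That of chr5:111538420-111540142 (forward, 176 kb from *Ttc28*) had −2.89, −2.83, −1.24 and −1.11 and rose by 1.68 (SE 0.18), and *Ttc28* rose by 1.44 (SE 0.12). With normexp the differences at chr3:30099759-30133959, chr10:69679644-69682458 and chr5:111538420-111540142 were 1.18, 1.24 and 0.94.

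The largest falls came from a pair of overlapping names on chromosome 8, between *Trim61* and *Marchf1*. At chr8:67550064-67560987, the reverse transcript had values of 0.53, 0.05, −2.58 and −2.76, and that of chr8:67552315-67561235 had 3.28, 2.91, 0.36 and 0.10. They were high at E8.5 and low at E10.5 in both genotypes, and the former fell by 2.96 (SE 0.17, adjusted p = 2.19e-06). The latter fell by 2.87 (SE 0.13, adjusted p = 6.4e-07). With normexp the differences were −2.16 and −2.72. The pair shares its locus and strand and is not independent. Their probes lie at either end of the region and share no run of 20 bases:
chr8:67560794-67560853, reverse strand: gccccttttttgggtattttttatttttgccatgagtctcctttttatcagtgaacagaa
chr8:67552372-67552431, reverse strand: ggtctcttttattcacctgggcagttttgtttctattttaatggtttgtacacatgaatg

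Among the other falls were transcripts next to *Trim71* and *Sall1*. At chr9:114416254-114416844, the reverse transcript, 6.28 kb from the probe of *Trim71* on the same strand, had 3.31, 3.27, 1.09 and 1.48 and fell by 2.01 (SE 0.14, adjusted p = 8.38e-06). *Trim71*, a regulator of early embryonic cells, differed by −0.05 (SE 0.15, adjusted p = 0.83). At chr8:91471819-91551119, the reverse transcript had −1.54, −1.59, −2.88 and −3.33 and fell by 1.54 (SE 0.20, adjusted p = 0.000391). *Sall1*, a zinc finger factor of kidney and limb development, has a probe 2.72 kb away on the same strand and fell by 1.69 (SE 0.13). Whether either transcript lies within the gene of its neighbour was not determined. Both transcripts were lower on both E10.5 arrays than on both E8.5 arrays. Their calls were lost with spike-in scaling, where the differences were −1.72 and −1.26. With normexp that of chr8:91471819-91551119 was −0.93.

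Further large falls had other neighbours. At chr2:59235155-59242518, the forward transcript, 44.6 kb from the junction gene *Pkp4*, had 1.17, 1.62, −0.41 and −0.13 and fell by 1.66 (SE 0.14), and *Pkp4* fell by 0.46 (SE 0.13). At chr11:119254413-119296960, the forward transcript, which holds a probe of *Rnf213* on the same strand and so may not be intergenic, had −2.57, −2.63, −4.20 and −4.39 and fell by 1.70 (SE 0.24). At chr15:102100964-102104552, the forward transcript, 7.57 kb from *Mfsd5* on the same strand, had −1.35, −1.41, −2.86 and −2.73, and fell by 1.41 on the log2 scale. Of this group, the forward transcript of chr5:35975265-35982561 stood opposite to its neighbour: it had 3.19, 2.35, 1.29 and 1.30 and fell by 1.47 (SE 0.18), whereas *Htra3*, a protease gene 17.8 kb away, rose by 2.28 (SE 0.22). In the order given, the member calls of this group were all lost with spike-in scaling, with differences of −1.38, −1.41, −1.13 and −1.19. With normexp those of chr11:119254413-119296960 and chr15:102100964-102104552 were −0.77 and −0.79.

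Detection on both arrays of 1 stage and neither of the other was seen for 94 members at E10.5 and 37 at E8.5. These are 2.20% and 0.865% of members, against 2.17% and 0.878% of all probes. The brightest at E10.5 included the reverse transcript of chr18:60812427-60819775 near *Ndst1*, with −4.77, −4.56, −0.41 and −0.78, at least 16.6-fold higher at E10.5. At E8.5, the reverse transcript of chr13:56851404-56851796, 7.96 kb from the signalling gene *Smad5*, had −2.64, −2.86, −5.36 and −5.46 and was at least 3.99-fold higher than at E10.5. At chr17:32948750-32967925, the forward transcript, flanked by probes of *Zfp799*, had −3.24, −2.58, −5.04 and −5.24, at least 3.56-fold higher.

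Members near developmental regulators changed in both directions. Of 98 members whose nearest coding gene within 100 kb was in a list of homeobox, Sox, Fox and other transcription factor genes and signalling ligands, 46 were detected and 39 were in the fit. Of these 39, 11 rose and 6 fell (43.6%), against 18.1% of the 1081 members in the fit near a gene in neither list and 34.7% of all probes in the fit, differences that were not tested. Overlapping forward transcripts beside *Lmx1b*, a factor of dorsal limb and midbrain, rose together. That of chr2:33496712-33501183 had −3.77, −4.00, −2.09 and −2.08 and rose by 1.80 (SE 0.22), but by 0.68 with normexp. That of chr2:33500594-33501874 had 0.89, 0.93, 2.56 and 2.34 and rose by 1.54 (SE 0.13). The latter call was lost with spike-in scaling, where the difference was 1.825. *Lmx1b* itself differed by −0.04 (SE 0.28, adjusted p = 0.931). Its probe was dim, with −4.045, −4.314, −3.94 and −4.495, where the lowest values of a detected probe were −4.82, −4.53, −4.72 and −4.77. A change of *Lmx1b* could therefore be missed.

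*Sox4*, a factor of neural and cardiac progenitors, was the nearest coding gene for members 95.7 kb and 90.0 kb from its probe. RefSeq noncoding genes, among them *2610307P16Rik*, lie between *Prl5a1* and *Sox4*. These members, the reverse transcripts of chr13:28947034-28949166 and chr13:28952570-28953234, rose by 1.23 (SE 0.16) and 1.09 (SE 0.24). Both calls were lost with spike-in scaling, where the differences were 1.51 and 1.38, and that of the latter also with normexp, where the difference was 0.21. Their values were −1.82, −2.04, −0.59 and −0.82 for the former and −4.09, −4.12, −2.86 and −3.16 for the latter, and *Sox4* rose by 0.53 (SE 0.15). Between *Foxd2* and *Foxe3*, the forward transcript of chr4:114585803-114588898 had −1.73, −1.60, −0.76 and −0.64 and rose by 0.96 (SE 0.16). That call too was lost with spike-in scaling, where the difference was 1.245. In the *Hoxb* cluster, the forward transcript of chr11:96173788-96174352, between *Hoxb5* and *Hoxb4* with *Mir10a* in the interval, had −1.80, −1.02, −2.31 and −2.10. It fell by 0.79 (SE 0.20, adjusted p = 0.0127), while *Hoxb5* rose by 1.20 (SE 0.18). The call of the *Hoxb* cluster transcript was lost with spike-in scaling, where the difference was −0.51.

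Members near imprinted genes, which are expressed from the chromosome of 1 parent, were also followed. Of 29 such members, 18 were detected and 12 were in the fit, where none rose and 2 fell (16.7%). This is close to the 18.1% of members near a gene in neither list, against 34.7% of all probes in the fit, differences that were not tested. At chr7:67119535-67120213, the reverse transcript, 8.42 kb from *Snrpn* on the same strand, had −0.86, −1.01, −1.58 and −1.81 and fell by 0.76 (SE 0.16, adjusted p = 0.00618). Its call was lost with spike-in scaling, where the difference was −0.47. *Snrpn* itself fell by 1.08 (SE 0.12). The other fall was in the *Dlk1* to *Dio3* domain, whose maternal chromosome gives a long run of noncoding RNAs including *Rian*. There the forward transcript of chr12:110909258-110913909 had 0.26, 0.59, −0.15 and 0.17 and fell by 0.42 (SE 0.14, adjusted p = 0.0399), a call lost with 4 of 9 alternatives (spike-in and no scaling, no block and no intensity trend). Its E8.5 and E10.5 values lay close, with both E10.5 arrays below both E8.5 arrays. Of the 18 members between *Rtl1* and *Dio3*, 14 were detected, 10 were in the fit and 1 was called, with differences from −0.52 to 0.25. At chr2:174088550-174109425, the forward transcript, 17.5 kb from *Gnas*, had 0.22, 0.34, −0.16 and 0.05 and did not pass (adjusted p = 0.0896).

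For scale, 29 of 34 named long noncoding RNA genes had a probe. With the brightest probe of each, 24 were detected on all 4 arrays, 3 rose and 5 fell, near the 34.7% of all probes called. *Miat*, a neural noncoding RNA, had 2.21, 2.29, 5.54 and 5.26 and rose by 3.15 (SE 0.13), and *Sox2ot*, which overlaps *Sox2*, rose by 1.02 (SE 0.14). *Fendrr*, a mesoderm noncoding RNA beside *Foxf1*, had 1.97, 1.96, 0.70 and 0.32 and fell by 1.45 (SE 0.14).

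Most members had a coding gene close by. Of the 4185 mapped probes, 3349 (80.0%) lay within 100 kb of a RefSeq messenger RNA probe, 2596 (62.0%) within 50 kb and 838 within 10 kb, and the median distance was 34.2 kb. Within 100 kb, 1742 were on the strand of that gene and 1607 on the other. Stage differences of member and neighbour were weakly related. Across 961 pairs with both in the fit, Pearson's r was 0.17 and 58.9% had the same sign, while across 9342 coding genes and their own nearest gene r was 0.11 and 55.9% had the same sign. On the same strand within 10 kb r was 0.29 over 197 members and 0.15 over 983 coding genes. Genes and regions share arrays and neighbours and are not independent, so no p-value is given. For KO over WT at E8.5, r was 0.09 for member pairs and 0.12 for coding genes, and at E10.5 it was 0.02 and 0.05. On the same strand within 10 kb, r at E8.5 was 0.14 for members and 0.34 for coding genes.

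Many regions had a signal from 1 strand only. Of 812 regions with a probe for each strand, 141 had both strands detected on all 4 arrays, 268 had 1 strand on all 4 and the other on none (111 forward and 157 reverse), and 215 had neither on any. Of all 4276 members, 1371 were detected on all 4 arrays and 2388 on none. With such shares, unrelated probes would often split in this way too, so the 268 regions do not show transcription limited to 1 strand. Over the 141 regions, r between strands for the stage difference was 0.21, against 0.45 over 97 pairs of probes for 1 name. Of those 97 pairs, 13 had both probes called, all 13 with the same sign, and 19 had 1 of the pair called. Where a probe of a named transcript lay in the region of a member, r was 0.51 over 231 pairs on the same strand and 0.15 over 191 on the opposite strand.

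Of the 141 regions with both strands in the fit, 6 had both strands called, 5 of them with the same sign. The region chr5:74487385-74497428, between *Usp46* and *Rasl11b* with *Dancr* in the interval, changed in opposite ways on its strands. The forward transcript had 3.95, 3.81, 3.16 and 3.38 and fell by 0.61 (SE 0.13, adjusted p = 0.00557). The reverse transcript had −1.32, −1.59, −0.69 and −0.17 and rose by 1.02 (SE 0.20, adjusted p = 0.00377). On either strand the stages did not overlap. Both calls were lost with spike-in scaling, and the forward one also with no scaling. In the other regions of this kind, named for the size of the difference between strands, only 1 strand or none was called. At chr8:91471819-91551119 the forward strand, with −2.33, −1.71, −1.94 and −1.94, differed by 0.08 (SE 0.21), unlike the fall on the reverse strand given above. At chr14:44284425-44300475 the forward transcript had 2.21, 2.06, 3.13 and 3.42 and rose by 1.14 (SE 0.14), with a reverse difference of −0.16 (SE 0.23). The forward call was lost with spike-in scaling, where the difference was 1.42, and the forward probe shares 20 bases with a probe of *Nudt4*. At chr8:122920901-123008463, the forward transcript, near *Gse1*, rose by 1.35 (SE 0.26) from −3.99 and −4.42 to −2.97 and −2.75, and the reverse one differed by 0.16 (SE 0.29). With normexp the forward difference was 0.36. At chr1:162965309-162970704, which holds the probes of the noncoding gene *Gas5*, the forward transcript had 0.95, 0.86, −0.35 and 0.07 and fell by 1.05 (SE 0.16), whereas *Gas5* differed by −0.14 (SE 0.12, adjusted p = 0.415). The reverse strand there differed by 0.23 (SE 0.19), and the forward call was lost with spike-in scaling, where the difference was −0.76.

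Between genotypes at E8.5, the larger values were more often on the knockout-labelled array. Of 1443 members detected on both E8.5 arrays, 134 (9.29%) were 1.5-fold or more higher there, against 4.06% of all 29581 such probes, and 58 (4.02%) were lower, against 3.39%. The median difference was 0.11 for members and 0.00 for all probes. Among those detected on all 4 arrays, members and all probes were close at mean log2 intensities up to −3, with 46 of 404 members and 405 of 3846 probes higher. From −3 to −1.5, 10.4% of members against 5.97% of all probes were higher, and above 1.5 5.11% against 1.09%. This balance depended on the filter, with 187 higher and 166 lower among members detected on at least 1 of the pair, and on scaling: 69.8% of the members past 1.5-fold were higher, but 2.29% (11 higher, 470 lower) with spike-in scaling and 20.5% (39 and 151) with none. Spike-in scaling moved the median of all probes at E8.5 to −0.54 and no scaling moved it to −0.25. A further 184 members were detected on the WT E8.5 array only and 63 on the knockout-labelled one only, as were 1789 and 645 of all probes, a similar imbalance.

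Globin signals differed between the E8.5 arrays. The primitive red cell genes *Hbb-y*, *Hbb-bh1* and *Hba-x* were above background on all 4 arrays, and their summed intensity, in multiples of the 75th percentile, was 12.8, 258, 802 and 948, with *Hbb-bh1* the brightest. *Hbb-y* had 0.15, 6.15, 8.45 and 8.47. The sums of the trophoblast genes were 0.0309, 0.243, 0.0222 and 0.0322, those of the decidual genes 0.130, 0.338, 0.0170 and 0.0248 and those of the yolk sac genes 17.3, 11.5, 17.0 and 14.0, with *Prl3d1*, *Prl8a2* and *Afp* the brightest of their lists. The part of these in the differences of members at E8.5, and that of sex at E10.5, was not tested.

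Among members detected on both E8.5 arrays, the reverse transcript of chr2:22782700-22801900 had the highest ratio. Its values were −4.49, −1.69, −4.55 and −4.16, so that the knockout-labelled E8.5 array stood above the other 3, 6.95-fold over WT at its stage. With normexp the log2 ratio was 1.28, against 2.80. Of the 10 members named for their ratios at E8.5, 8 moved by over 1.5 times with normexp, under which their ratios ran from 1.47-fold to 3.57-fold. Its region also holds probes of the coding gene *Abi1* on the same strand and of *Pdss1* on the opposite one, so it may not be intergenic. The probe of the forward transcript overlaps it, with values of −0.82, −0.72, −0.96 and −0.80 and a difference of 0.10 at E8.5. The 31 bases in which the probes are complementary are in capitals:
chr2:22789101-22789160, reverse strand: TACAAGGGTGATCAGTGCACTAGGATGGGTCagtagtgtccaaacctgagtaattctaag
chr2:22789130-22789189, forward strand: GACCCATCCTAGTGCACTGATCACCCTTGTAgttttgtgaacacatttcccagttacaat

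Other high ratios at E8.5 were at the forward transcript of chr10:95729303-95755173 (−4.11, −2.30, −2.88 and −2.70, 3.51-fold) and at the reverse transcript of chr16:39984031-40081556 between *Igsf11* and *Lsamp* (3.74, 5.12, 4.71 and 4.37, 2.60-fold). At chr14:78214602-78225827, the forward transcript near *Dnajc15* had −3.43, −2.07, −3.23 and −2.62, 2.58-fold higher. That of chr2:113880070-113887230, 12.2 kb from the cardiac actin gene *Actc1*, had −3.48, −2.21, −3.47 and −3.23, 2.40-fold higher. In all but chr10:95729303-95755173 and chr16:39984031-40081556 the WT E8.5 value was close to that of WT at E10.5.

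The lowest ratios at E8.5 came in part from 1 stretch of chromosome 5 with genes of the *Speer* family, which are known for expression in the testis. At chr5:15146475-15170100, the forward transcript had −1.53, −3.79, −6.39 and −5.14, was 4.79-fold lower on the knockout-labelled array at E8.5 and was not well above background at E10.5, at least 4.24-fold lower there. That of chr5:15033568-15033987 had −2.15, −4.14, −5.83 and −6.26, 3.97-fold lower at E8.5, and was also not well above background at E10.5. That of chr5:14943275-14944205 had −1.19, −2.96, −4.07 and −3.94, 3.41-fold lower, and fell between stages by 1.93 (SE 0.38, adjusted p = 0.00379). With normexp that stage difference was −1.05. All 3 were highest on the WT E8.5 array, and the nearest coding probes, of *Speer4c*, *Gm17019* and *Gm10354*, were well above background on no array. Their probes share no run of 20 bases and read:
chr5:15168445-15168504, forward strand: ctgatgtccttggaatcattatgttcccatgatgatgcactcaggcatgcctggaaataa
chr5:15033762-15033821, forward strand: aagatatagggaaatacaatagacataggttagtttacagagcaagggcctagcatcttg
chr5:14944100-14944159, forward strand: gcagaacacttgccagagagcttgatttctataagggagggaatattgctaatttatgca

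Elsewhere, the reverse transcript of chr13:108548345-108679004, 33.8 kb from *Zswim6*, had 5.16, 3.41, 4.93 and 4.54 and was 3.36-fold lower on the knockout-labelled E8.5 array, the lowest of the 4. At chr3:36280098-36347798, the forward transcript, 0.685 kb from the *Anxa5* probe on the opposite strand, had −2.32, −4.03, −2.90 and −3.19 and was 3.26-fold lower there, while *Anxa5* was higher by 0.25 on the log2 scale.

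At E10.5 fewer members passed 1.5-fold. Of 1564 detected on both arrays, 51 (3.26%) were higher on the knockout-labelled array, against 1.88% of all 30877 such probes, and 38 (2.43%) were lower, against 2.36%. The share of higher among them was 57.3%, with 89.0% under spike-in scaling and 29.1% with no scaling. At this stage 74 members were detected in WT only and 112 on the knockout-labelled array only, against 941 and 1066 of all probes. At chr10:69819062-69871640, the forward transcript, between *Slc16a9* and *Fam13c*, had −6.82, −6.53, −4.38 and −2.52, with neither E8.5 array well above background, 3.64-fold higher on the knockout-labelled array. That of chr18:54122285-54122917, 7.65 kb from *Csnk1g3*, had −6.79, −4.41, −4.60 and −3.23, 2.58-fold higher. At chr9:43738583-43757007, the reverse transcript, between *Nectin1* and *Thy1*, had −3.88, −3.62, −4.52 and −3.25, 2.42-fold higher at E10.5, and that of chr12:32781477-32808567, between *Prkar2b* and *Pik3cg*, had −5.71, −4.23, −2.42 and −1.15, 2.40-fold higher. With normexp, 7 of the 10 members named for their ratios at E10.5 moved by over 1.5 times and 5 remained past 1.5-fold. For the transcripts near *Csnk1g3* and *Pik3cg* the WT E8.5 array was not well above background.

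Lower on the knockout-labelled E10.5 array was the forward transcript of chr1:183951156-183986156, between *Enah* and *Srp9*. It had −0.79, −0.95, −0.01 and −1.59, 2.98-fold lower at E10.5. At chr4:33375464-33377138, the reverse transcript, 43.1 kb from *Pnrc1*, had −3.64, −3.83, −3.06 and −4.43, 2.59-fold lower, and that of chr11:97457180-97487074, 4.72 kb from *Epop*, had −4.57, −5.97, −2.83 and −4.01, 2.26-fold lower, and was not well above background at E8.5. For the transcripts near *Srp9* and *Pnrc1* the E8.5 arrays differed by 1.12-fold and 1.13-fold. Further members with low ratios at E10.5 had high ratios at E8.5. These were the reverse transcripts of chr5:106121842-106127192 (−2.58, −1.60, −2.09 and −3.45, 2.57-fold lower at E10.5) and chr14:65433420-65434061 (−4.01, −3.17, −2.89 and −4.01, 2.17-fold lower).

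Over both stages together, 11 of 1371 members (0.802%) were 1.5-fold or more apart in the same direction at each stage, against 0.486% of all probes, and 9 (0.656%) in opposite directions, against 0.192%. In the limma fit with stage as a block, 1 member was called for genotype, against 10 of 28622 probes (0.0349%), and 87 of 1371 members and 1364 of all probes had an unadjusted p under 0.05. This was the reverse transcript of chr2:179984199-179984669, between *Lama5* and *Rps21*. Its values were −3.49, −2.31, −0.25 and 1.21, higher with stage and on both knockout-labelled arrays. It was 2.26-fold higher on the knockout-labelled array at E8.5 and 2.75-fold at E10.5 (genotype difference 1.32, SE 0.17, adjusted p = 0.0485), and it rose between stages by 3.38 (SE 0.17), with *Rps21*, 8.25 kb away on the opposite strand, at −0.20 (SE 0.12). The call was lost with 5 of 9 alternative settings. Its probe reads:
chr2:179984396-179984455, reverse strand: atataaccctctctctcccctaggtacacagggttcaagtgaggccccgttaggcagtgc

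The same direction at both stages was also seen at lower fold. At chr16:64758224-64765674, the reverse transcript, whose probe shares bases with that of an overlapping member, had −2.27, −3.15, −1.83 and −2.71, lower on the knockout-labelled array 1.85-fold at E8.5 and 1.83-fold at E10.5. At chr5:35893909-35899497, the forward transcript, 1.1 kb from *Trmt44*, had 3.06, 2.37, 2.68 and 1.97, lower 1.62-fold and 1.64-fold. Both knockout-labelled arrays lay below both WT arrays for each. Higher at both stages were the forward transcripts of chr15:86035939-86042539 near *Cerk* (−1.74, −0.89, −1.58 and −0.93) and chr11:102833388-102833781 near *Dcakd* (−3.55, −2.86, −4.26 and −3.55). So were the reverse transcripts of chr1:182686731-182709331 near *Acbd3* (2.88, 3.54, 3.65 and 4.34), chr5:13067925-13096000 near *Sema3d* (−4.19, −3.14, −3.80 and −3.13) and chr8:122928924-122929556 near *Gse1* (−4.39, −3.76, −4.49 and −3.44). The genotypes were apart on all 4 arrays at *Cerk*, *Sema3d* and the *Gse1* transcript, and the ratios ran from 1.55-fold to 2.07-fold. These depended on scaling: of 8 members higher at both stages, 2 passed 1.5-fold at both with spike-in scaling, 1 with no scaling and 2 with normexp, and of 3 lower at both, 1, 3 and 1 did.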

How the data were processed

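RNA of 4 groups of whole embryos was measured on 1 array each. Each deposited scanner file gives an intensity per spot, background-subtracted by Feature Extraction (version 10.7.1.1 per the file headers, another version per the labels). The authors deposited in addition a table of linear intensity values that share 1 distribution across arrays. Members are probes named by coordinates on autosomes. The members and lists were chosen with earlier results of these data known. Spots of a probe were averaged as log2 intensity, without outlier spots, and scaled by subtracting each array's own 75th percentile. Of 56605 probes that are not controls, 1 had no value and was left out.

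Stages and genotypes were compared with limma 3.58.1 in R 4.3.3 (stage plus genotype, empirical Bayes with intensity trend, Benjamini-Hochberg over 28622 probes), on probes well above background on all 4 arrays. Genotypes at a stage were compared as ratios with a threshold of 1.5-fold. Other steps used Python 3.11.15, numpy 2.4.6 and pandas 2.3.3. Neighbours are the nearest RefSeq messenger RNA probes by the positions on the array (mm9), represented by the brightest probe. Distances are between probes and do not place a member outside the gene of its neighbour. RefSeq names of GRCm38.p6 gave current symbols (1535 probes renamed, 32993 matched) and gene order only. The developmental list was restricted to symbols of the families named.

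Members named are the largest stage changes and genotype ratios, those with the same direction at both stages, the brightest, those detected at 1 stage, those called for genotype, those near listed genes with the largest stage differences and regions whose strands differ most, and a few that meet these terms are not described. Alternatives were quantile, spike-in and no scaling, normexp background correction, the deposited table, other filters, no block, no trend and other reaches. Leaving out members that share 20 bases and counting regions were chosen after seeing the data. The labels give no replicate numbers, so arrays were paired only through the blocks for stage and genotype.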

Additional observations from a re-analysis of the deposited data

Results flagged for a closer look

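Of the members detected on all 4 arrays, 9 were 1.5-fold or more apart between genotypes in opposite directions at the stages, and they were named after their values had been seen. In each case the difference between stages was not tested, since each value is the log2 ratio of 1 knockout-labelled array to 1 WT array. Higher on the knockout-labelled array at E8.5 and lower at E10.5 were the reverse transcripts of chr5:106121842-106127192 (0.98 and −1.36), chr14:65433420-65434061 (0.84 and −1.12), chr2:38830900-38841225 (0.77 and −0.84) and chr15:79764481-79809909 (0.63 and −0.92, 18.4 kb from *Cbx7*). So were the forward transcripts of chr4:40840725-40860875 (0.75 and −0.65), chr8:26212577-26218527 (0.75 and −0.62) and chr11:97505439-97522274 (0.64 and −0.68, 13.8 kb from *Mllt6*). The opposite order was seen for the reverse transcript of chr12:21548850-21568550 (−0.79 and 0.78) and the forward transcript of chr9:121845920-121858120 (−0.89 and 0.76). The pattern depended on scaling: of the 7 members higher at E8.5 and lower at E10.5, 0 passed 1.5-fold at both stages with spike-in scaling, 1 with no scaling and 1 with normexp, and of the other 2 members, 2, 2 and 1 did. The marker genes of sex differ between the E10.5 arrays and the globin genes between the E8.5 arrays, and their part in the result was not tested.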

How the results depend on the processing

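With 1 array per group, array noise and genotype cannot be told apart at a stage, and many members lie near background. The number of members called for genotype, 1 in the fit described, was 3 with quantile normalization, 0 with spike-in scaling, 27 with no scaling, 0 with normexp, 4 with the deposited table, 0 with detection on at least 2 arrays, 31 with no filter, 0 with no block and 0 with no trend. For stage, spike-in scaling gave 27 higher and 3 lower, no scaling 331 and 62, and no filter 273 and 220. The median stage difference was 0.26 with spike-in scaling and 0.22 with no scaling. At E8.5 the counts past 1.5-fold (higher, lower) were 11 and 470 with spike-in scaling, 39 and 151 with no scaling and 34 and 14 with normexp, with 187 and 166 for detection on at least 1 array of the pair. At E10.5 they were 113 and 14, 32 and 78, and 7 and 6, with 127 and 91 for detection on at least 1 array of the pair and 35 and 25 for detection on all 4. The cause was not tested. Without members that share 20 bases, 136 were higher and 122 lower at E10.5, and counted as regions 139 and 118, both chosen after seeing the data. Over 34 named members called for stage, 282 of 306 values under alternatives kept the call and 0 changed sign. Over 14 named members not called, 116 of 126 values stayed uncalled, and 10 values of 5 members changed sign. Of 295 genotype values, taken for ratios past 1.5-fold, 77 fell short of 1.5-fold and 0 changed sign.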
